A study of Oreochromis niloticus with 16 samples.

Results

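The miRNAs of adult Nile tilapia brain were compared here with those of 4 organs outside the nervous system, namely ovary, testis, liver and heart. The members are 6 small RNA libraries of the 16 in the series, 2 of brain and 4 of the organs, chosen by their tissue. Muscle, eye, and whole embryos and larvae made up the other libraries. All 6 libraries came from adult fish of the Chitralada strain. One brain library was from a female and the other from a male, and the organs were 1 ovary, 1 testis, 1 liver library of mixed sex and 1 heart library from females. The sample titles give female brain and ovary the same fish number, so these may come from 1 animal, whereas male brain and testis carry different numbers. No organ was sequenced more than once. The sexes therefore stood in as the replicates of brain, and the 4 organs were treated as 1 group, so that p-values measure brain against the spread between different organs and between the 2 brains.

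A miRNA is cut from a hairpin precursor, which can yield a mature strand from its 5′ arm (5p) and one from its 3′ arm (3p). The mature strand guides repression of mRNAs that pair with its seed. In vertebrate brain, miR-124, miR-9, miR-128 and miR-132 are known as miRNAs of neurons and their progenitors, and miR-219 and miR-338 as miRNAs that drive oligodendrocyte maturation. Outside the nervous system, miR-122 marks hepatocytes, miR-499 heart muscle, miR-202 the gonads, miR-126 endothelium, and miR-143 and miR-145 smooth muscle.

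Levels are reads per 1000000 miRNA reads of a library (CPM), with a read that matches several hairpins divided among them and the reads summed per mature name. A number at the end of a name marks a sequence variant or copy as the authors numbered it. Brain was sequenced more deeply than the organs, with 5082018 reads in female brain and 6773179 in male brain, against 941828 to 1350066 in the organs. A count of 3 reads, the limit that a count of 0 allows, was worth 0.590 CPM in female and 0.443 CPM in male brain, against 2.22 to 3.19 CPM in the organs. The labels fitted the defining miRNAs. miR-124a-3p held 30369 CPM in female and 14668 CPM in male brain, and miR-9-5p-2 held 28325 and 26205 CPM, against at most 42.5 and 45.7 CPM in an organ. For miR-122-5p the brains had 7.87 and 10.8 CPM, against 450152 CPM in liver. miR-499-5p was at 4.72 and 4.13 CPM in the brains, against 42309 CPM in heart, and miR-202-5p was at 0.197 and 0.591 CPM, against 775 CPM in ovary and 11961 CPM in testis.

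The names that passed in this comparison were higher in brain, and most belonged to neuronal families with few reads in ovary, testis, liver or heart. Of 577 mature names, 279 had a mean of at least 5 CPM over the 6 libraries and were tested. A name with organ levels all under 5 CPM met this limit only through its brain reads, so its direction was fixed by the filter. By edgeR's quasi-likelihood test with Benjamini-Hochberg adjustment, 33 names passed as higher in brain, or 11.8% of those tested, and 0 passed as lower, or 0%. Both brain libraries lay above all 4 organs for 70 names, which is 25.1% of those tested, and below all 4 for 40 names, which is 14.3%. An exact permutation test of 2 libraries against 4 cannot give a two-sided p under 0.133, so the order of the libraries carries no p of its own. In tissue libraries such as these, fewer cells of a type and less RNA per cell cannot be told apart.

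The 33 names that passed all lay above the 4 organs in both brains. They held 10.1% of the reads of female brain and 9.65% of those of male brain, against 0.0444% to 0.0566% in the 4 organs. The lowest mean among them was 20.5 CPM over the 2 brains, and 21 had at least 100 CPM in each. Their median log2 fold change was 8.51, while the median over all names tested was −0.94 with TMM scaling (trimmed mean of M-values), −0.52 with library totals and −0.29 with the size factors of DESeq2. A fold change given here is thus relative to a bulk of names that lay somewhat lower in brain, by an amount that moved with the scaling.

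The count of 33 depended on which libraries and which test were used. It was 16 without female brain and 16 without male brain, and 14 names passed both times. It was 42 without testis, 24 without liver, and 34 or 35 without heart or ovary. Fits with a library left out kept the names chosen with all 6 libraries, so a left-out brain still helped to choose them. Names with few or no organ reads, such as miR-129-3p-2, miR-92b-3p and miR-n470a-5p, therefore had their direction fixed by the filter there too. Fits with other settings reuse the same brain libraries, and many the same 279 names, so passing under several is no independent evidence. The DESeq2 Wald test called 55 names higher and 32 lower, and it called all 33. At an unadjusted p under 0.05, edgeR gave 52 names higher and 42 lower. With each organ as a group of its own, so that only the difference between the 2 brains set the spread, 71 names passed as higher and 52 as lower. In all, 4 names passed under each of the 14 alternatives, namely miR-129-3p-2, miR-212-5p-2, miR-92b-3p and miR-n470a-5p.

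**Figure D1:**
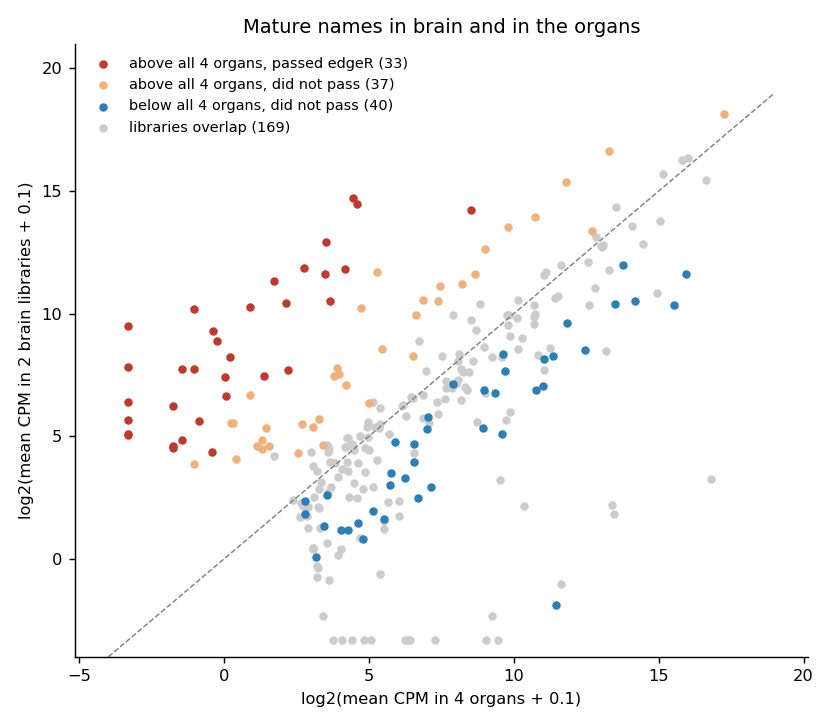
Mean level of each of the 279 mature names in the 2 brain libraries (vertical axis) and in the 4 organs (horizontal axis), both as log2 of CPM with 0.1 added, with the dashed line at equal levels. The 33 names that passed lie far above the line over a wide range of brain levels, and the 40 names with both brains below all 4 organs lie below it at mostly high organ levels.

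Names of the neuronal miRNA families made up most of what passed. The neuronal list held 11 families, from miR-9 and miR-124 to miR-218, with 54 names in the files and 33 tested. Of these 33, 22 passed as higher, 0 as lower and 11 did not pass, and 31 lay above all 4 organs in both brains. Their median log2 fold change was 6.35, or 5.77 with names at 0 in all organs set to their lower bound, against −0.94 over all names tested. Summed over all 54 names, female and male brain held 101954 and 101202 CPM, or 10.2% and 10.1% of their reads, against 688 CPM in ovary, 1787 in testis, 968 in liver and 532 in heart. The list was written with earlier results of these libraries known and is no independent evidence of its own direction. Its names with almost no organ reads were also tested only because brain was high. The count above the organs and the median fold change among tested names are therefore descriptions only.

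miR-124 and miR-9 gave the highest of these levels. miR-124a-3p, a miRNA that represses non-neuronal transcripts in differentiating neurons, had 30369 CPM in female and 14668 CPM in male brain, against 42.5 CPM in ovary, 26 in testis, 20 in liver and 7.03 in heart. The lower brain stood 345-fold above the highest organ (log2 fold change 9.46, SE 1.27, edgeR adjusted p = 0.00756). Over the 14 alternatives the log2 fold change of miR-124a-3p ranged from 2.65 to 10.6, and it did not pass under every one. Exact Poisson 95% intervals ran from 14577 to 14760 CPM in male brain and from 30.3 to 57.8 CPM in ovary, so counting error was small against the difference. Reads carry no molecular identifiers, and these intervals cover counting error only. Its passenger strands, miR-124a-5p and miR-124a-5p-2, stayed below 43 CPM in both brains and also passed. Their lowest log2 fold changes over the alternatives were 0.35 and 2.61, and neither strand passed under every one.

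miR-9-5p-2, made from 7 hairpins and active in neural progenitors and neurons, had 28325 CPM in female and 26205 CPM in male brain, against 45.7 CPM in ovary, 23.7 in testis, 6.67 in liver and 11.7 in heart. The brains nearly coincided and stood at least 574 times above each organ (log2 fold change 9.75, SE 1.35, edgeR adjusted p = 0.00756). The 3p strands of miR-9 passed too. miR-9-3p-5 had 3160 and 4299 CPM in female and male brain, against 22.3 CPM in ovary, 2.29 in testis, 2.22 in liver and 0 in heart. For miR-9-3p-2 the brains had 3166 and 4168 CPM, against 21.2, 10.7, 5.18 and 33.6 CPM in the same order of organs, and miR-9-3p-3 had 2163 and 3059 CPM in the brains, against at most 7.43 CPM in an organ.

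miR-128-3p, a neuronal miRNA that tempers excitability in mouse, had the highest organ levels of the 33 names. It had 20816 CPM in female and 17369 CPM in male brain, against 296 CPM in ovary, 394 in testis, 413 in liver and 380 in heart. The 4 organs lay close together, and the lower brain was 42.1 times the highest of them (log2 fold change 5.27, SE 0.88, edgeR adjusted p = 0.0105). The adjusted p was 0.0513 under 1 of the 14 alternatives and stayed under the threshold in the other 13.

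miR-132 and miR-212, which sit in 1 cluster in vertebrates and are induced by neuronal activity, were high from both arms. miR-212-5p had 4157 CPM in female and 11310 CPM in male brain, against 21.2 CPM in ovary, 7.64 in testis, 10.4 in liver and 5.46 in heart (log2 fold change 8.89, SE 1.20, edgeR adjusted p = 0.00756). Its second variant, miR-212-5p-2, had 1849 and 4408 CPM in female and male brain, against 1.56 to 22.2 CPM in the organs. Both variants were over 2 times higher in male than in female brain. miR-132-5p-2 had 869 and 1446 CPM in the brains, against 0.764 CPM in testis and 0.781 CPM in heart, 1 read in each, and no read in ovary or liver. miR-132-3p had 440 and 516 CPM in the brains, against 0.764 CPM in testis, 2.22 CPM in liver and no read in ovary or heart.

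Among names that passed with no read in the 4 organs, miR-129-3p-2 had the highest levels in brain. It belongs to miR-129, a neuronal miRNA that restrains translation at synapses in rodents. miR-129-3p-2 had 426 CPM in female and 1000 CPM in male brain, against 0 reads in all 4 organs, which made it at least 134-fold higher than the floor of 3 reads per library (edgeR adjusted p = 0.0118). miR-129-5p had 1097 and 1668 CPM in the brains, against 8.49 CPM in ovary, 6.88 in testis, 0 in liver and 1.56 in heart. Outside the comparison, miR-129-3p-2 had 26.4 CPM in eye and at most 6.99 CPM in muscle, and miR-129-5p had 171 CPM in eye. In all, 6 of the 33 names had no read in any organ, and these met the filter through their brain reads alone. The same held for names of the 33 with organ levels all under 5 CPM, such as miR-132-3p, miR-92b-3p and miR-723-3p. For all of these, the test had no free direction. The other 5 names with no organ read were miR-129-3p, at least 11.5-fold higher, miR-132-5p, at least 13.8-fold, miR-124a-5p, at least 7.62-fold, miR-7a-3p-2, at least 8.71-fold, and miR-219-5p, at least 39.7-fold. These bounds were set by organ depth, since an organ library was several times shallower than a brain library.

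Among the other neuronal families, 5 names passed. miR-137b-3p, a brake on neural progenitors, had 996 and 1959 CPM in female and male brain, against 5.31 CPM in ovary, 36.7 in testis, 8.15 in liver and 0 in heart. miR-138-5p, which limits dendritic spine size in rodents, had 165 and 256 CPM in the brains, against 0.741 to 12.2 CPM in the organs, and miR-135a-5p had 95.7 and 258 CPM, against 0.781 to 5.93 CPM. miR-137a-3p and miR-153b-5p passed at lower levels, with 18.9 and 4.72 CPM in female brain and 38.8 and 41.5 CPM in male brain.

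The most abundant neuronal names that did not pass were also found in testis. miR-153a-3p, of a family that targets synaptic vesicle proteins, had 1334 CPM in female and 1665 CPM in male brain, against 454 CPM in testis and at most 8.49 CPM in ovary, liver and heart (log2 fold change 3.55, SE 2.03, edgeR adjusted p = 0.246). miR-135b-5p had 1170 and 3265 CPM in the brains, against 501 CPM in testis, 104 in liver, 92.4 in ovary and 0.781 in heart. miR-218a-5p, known from motor neurons, had only 83.0 and 78.2 CPM in the brains, against 15.3 to 52.3 CPM in the organs, and the order of its libraries was lost with TMM scaling. Only miR-135c-5p and miR-218b-5p of the list overlapped between brain and organs. miR-135c-5p had 305 and 646 CPM in the brains and 321 CPM in liver, and miR-218b-5p had 34.9 CPM in female but 1.82 CPM in male brain.

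**Figure D2:**
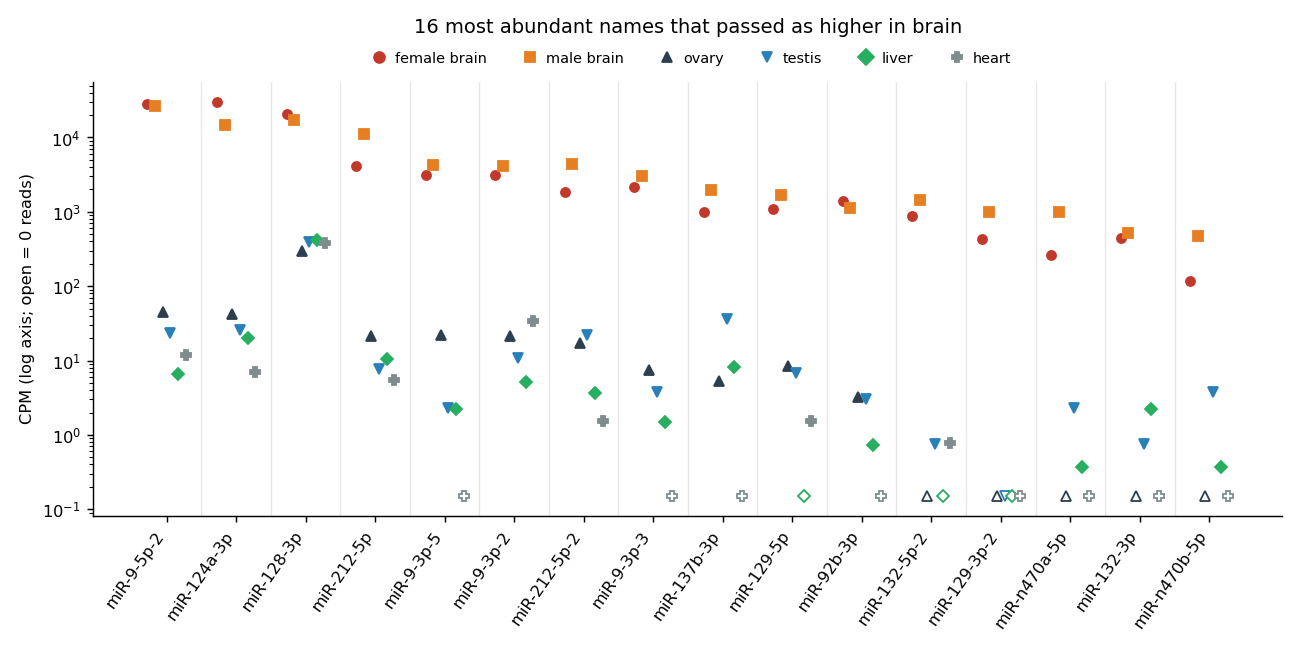
CPM on a log axis of the 16 most abundant names that passed as higher in brain, in each of the 6 libraries, with open symbols for 0 reads drawn at the foot of the axis. Both brain symbols lie above all 4 organ symbols for each name, and miR-128-3p has the highest organ levels, with 17369 CPM in male brain against 413 CPM in liver.

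The oligodendrocyte list split between its families. It had 6 names tested, of which 3 passed as higher, 0 as lower and 5 lay above all 4 organs, with a median log2 fold change of 6.09, or 5.15 with lower bounds. The 3 that passed were all miR-219. miR-219-5p had 331 CPM in female and 126 CPM in male brain, against 0 reads in the 4 organs (edgeR adjusted p = 0.0181). miR-219-3p-2 had 256 and 176 CPM in the brains, against 1.06 CPM in ovary and 0 reads in the others. All 3 miR-219 names met the filter only through their brain reads, so their direction was fixed by it. The counts and the median fold change of this list are therefore descriptions only. The 3 miR-219 names were each higher in female than in male brain, unlike most names that passed.

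miR-338-3p, the partner of miR-219 in myelination, was present in the organs as well. It had 3629 CPM in female and 2642 CPM in male brain, against 64.8 CPM in ovary, 428 in testis, 744 in liver and 379 in heart. Both brains lay above the organs, and the difference did not pass (log2 fold change 2.65, SE 0.99, edgeR adjusted p = 0.118). In muscle it reached 12080 CPM, so that with muscle and eye added to the organs the log2 fold change was −0.33.

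Of the 33 names, 8 belong to neither list. miR-92b-3p, known from neural stem cells in mammals, had 1389 CPM in female and 1114 CPM in male brain, against 3.19 CPM in ovary, 3.06 in testis, 0.741 in liver and 0 in heart (log2 fold change 9.10, SE 1.45, edgeR adjusted p = 0.0105). It was the only one of 14 names tested in the miR-17-92 list that passed, and of the other 13 none lay above all 4 organs. miR-723-3p had 167 and 256 CPM in the brains, against 1.53 CPM in testis and 0 reads elsewhere. miR-103-5p-2 and miR-221-5p, minor strands of their hairpins, had 79.9 and 11.2 CPM in female brain and 120 and 87.8 CPM in male brain, against at most 2.96 and 1.06 CPM in an organ. The eighth, miR-7a-3p-2, had 27.7 and 38.8 CPM in the brains and no read in the organs.

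Of these 8, 3 carry an n in their name, which the authors use for miRNAs not known from other species. miR-n470a-5p had 261 CPM in female and 986 CPM in male brain, against 0 in ovary, 2.29 in testis, 0.37 in liver and 0 in heart (log2 fold change 9.62, SE 1.70, edgeR adjusted p = 0.0107). Its relative miR-n470b-5p had 117 and 477 CPM in the brains, against at most 3.82 CPM in an organ. In liver each name held 0.5 of a divided read, so reads are shared between hairpins and their division is uncertain. miR-n932-3p had 14.6 and 26.4 CPM in the brains, against at most 1.06 CPM in an organ. Over the 30 tested names with an n, 3 passed, 5 lay above and 4 below all 4 organs, with a median log2 fold change of −2.41.

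Several of the most abundant miRNAs of brain lay above every organ but did not pass. miR-125b-5p, a broadly expressed miRNA that promotes neuronal differentiation in human cells, had 113711 CPM in female and 88533 CPM in male brain, against 270 CPM in ovary, 15914 in testis, 5258 in liver and 18127 in heart (log2 fold change 2.93, SE 1.40, edgeR adjusted p = 0.166). The organs spread far more than the brains, with ovary the lowest. miR-125a-5p had 50713 and 34350 CPM in the brains, against 2087, 6853, 885 and 4510 CPM in ovary, testis, liver and heart (edgeR adjusted p = 0.107). let-7i-5p, a let-7 member, had 22411 and 8924 CPM in the brains, against 540 to 3107 CPM in the organs. Of the 35 broadly expressed names tested, 5 lay above all 4 organs and 9 below, and 0 passed.

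Of the miR-221 and miR-222 cluster, known for promoting proliferation, 4 of 5 names tested lay above the organs. The fifth, miR-222a-5p-2, overlapped, with 724 and 997 CPM in the brains, against 750 CPM in ovary, 211 in testis, 175 in liver and 333 in heart. miR-222a-3p had 4887 CPM in female and 18563 CPM in male brain, against 921 CPM in ovary, 518 in testis, 1717 in liver and 439 in heart (log2 fold change 3.27, SE 0.98, edgeR adjusted p = 0.0776). miR-221-3p had 2988 and 9727 CPM in the brains, against 239 to 1001 CPM in the organs (edgeR adjusted p = 0.0802). For these 2 names, male brain was over 3 times female brain. miR-724-5p came nearest to the threshold with high levels, at 2685 and 3986 CPM in the brains against 3.70 to 110 CPM in the organs (edgeR adjusted p = 0.0549). miR-204-5p, known from choroid plexus and retinal pigment epithelium, had 1529 and 1432 CPM in the brains, against 32.0 to 393 CPM in the organs, and 5799 CPM in eye.

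Some names lay above all organs by a small margin. let-7g-5p had 10608 CPM in female and 10482 CPM in male brain, against 10452 CPM in liver, a ratio of 1.00. miR-100-5p, the most abundant miRNA of both brains, had 262299 and 314483 CPM, against 239398 CPM in ovary, 186088 in heart, 130857 in testis and 72774 in liver (log2 fold change 0.31, SE 1.07). With TMM scaling these 2 names and miR-218a-5p no longer lay above all organs, and 67 of the 70 did. Just outside stood 7 names whose lower brain reached over 0.8 of the highest organ, among them miR-139-5p, miR-210-5p and miR-455-3p. Other abundant miRNAs of brain overlapped with the organs, such as let-7a-5p at 88728 and 76106 CPM in the brains and 36158 to 104632 CPM in the organs, and miR-26a-5p at 81324 and 76316 CPM in the brains and 8583 to 97091 CPM in the organs.

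None of the 40 names with both brains below all organs passed with edgeR, where the smallest adjusted p was 0.0802, though 28 of them had an unadjusted p under 0.05. The DESeq2 Wald test called 20 of the 40 lower, and the fit with each organ as its own group called 31. Together the 40 held 1.43% of the reads of female brain and 1.49% of those of male brain, against 29.1% in ovary, 20.3% in testis, 14% in liver and 8.30% in heart. These names are given because of their order, which was seen before they were chosen. Of the 40, 6 were over 2-fold apart between the brains.

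miRNAs known from smooth muscle and from innate immune signalling were among these names. miR-143-3p, a smooth muscle miRNA, had 1603 CPM in female and 1034 CPM in male brain, against 76654 CPM in ovary, 99399 in testis, 2676 in liver and 8774 in heart (log2 fold change −5.55, SE 1.99, edgeR adjusted p = 0.115). Its cluster partner miR-145 was split by arm. miR-145-3p had 135 and 130 CPM in the brains, against 429 to 3692 CPM in the organs. miR-145-5p, which was the more abundant strand in brain, overlapped, with 737 and 1854 CPM in the brains, against 355 CPM in ovary, 20796 in testis, 1520 in liver and 1810 in heart (edgeR adjusted p = 0.320). miR-146a-5p, a feedback regulator of innate immune signalling, had 2716 and 3644 CPM in the brains, against 174634 CPM in ovary, 41436 in testis, 21909 in liver and 11949 in heart. Ovary and testis were the highest organs for miR-143-3p, miR-145-3p and miR-146a-5p, while ovary was the lowest organ for miR-145-5p.

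The mesenchymal miR-199a and miR-214, which share 1 transcript in vertebrates, were lowest in brain as well. miR-199a-5p had 1342 CPM in female and 1579 CPM in male brain, against 3981 CPM in ovary, 11346 in testis, 48787 in liver and 9719 in heart (edgeR adjusted p = 0.113). miR-214-3p had 2.95 CPM in each brain, against 32.9, 9.94, 107 and 32.0 CPM in the same order of organs (edgeR adjusted p = 0.0837). All 3 tested names of the mesenchymal list lay below all 4 organs, with a median log2 fold change of −4.14, and 0 passed.

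The set also held members of the miR-23, miR-27, miR-26 and miR-30 families. Of miR-26 these were minor 3p strands, while miR-26a-5p and miR-26b-5p overlapped with the organs. Of miR-30 they were minor 3p strands and the 5p strand miR-30c-5p-2, while miR-30e-5p overlapped. miR-23a-3p, from a cluster active in endothelium and muscle, had 261 CPM in female and 355 CPM in male brain, against 2386 CPM in ovary, 2520 in testis, 1809 in liver and 3832 in heart (log2 fold change −3.62, SE 1.1, edgeR adjusted p = 0.0802). miR-27c-3p had 1752 and 953 CPM in the brains, against 1978 to 30065 CPM in the organs, and miR-30e-3p had 196 and 210 CPM, against 703 to 930 CPM. The lowest level in brain was that of miR-n692-5p, with 0.197 and 0.148 CPM, 1 read in each brain, against 1001 CPM in ovary, 4.59 in testis, 10089 in liver and 0.781 in heart. The heart value is also 1 read, so its place above the brains reflects only the lower depth of heart. Its 2 high organs carried nearly all of the difference.

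**Figure D3:**
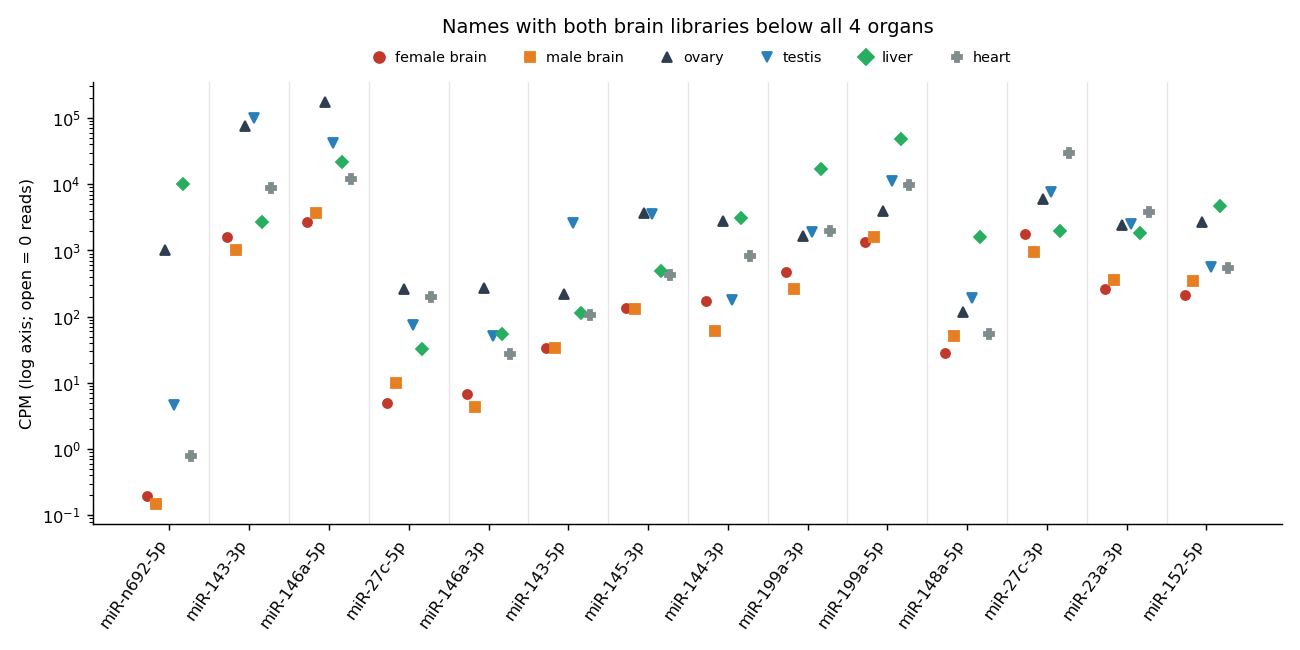
CPM on a log axis in each of the 6 libraries for the 14 names with the lowest fold change among those with both brains below all 4 organs and a mean of at least 100 CPM in the organs. The brains lie close together for most names, and the organs spread widely for several, as for miR-143-3p with 1603 and 1034 CPM in brain against 2676 to 99399 CPM.

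Lists for other organs and cell types showed how little of them the brain libraries held. The liver list, with 6 names in the files and 5 tested, summed to 14.8 CPM in female and 11.1 CPM in male brain, against 3531 CPM in ovary, 4370 in testis, 495234 in liver and 28.1 in heart. The 2 gonad names, both miR-202, summed to 0.197 and 0.591 CPM in the brains, against 1165 CPM in ovary and 12187 in testis. The heart and muscle list summed to 545 and 291 CPM in the brains, against 76649 CPM in heart and 250 CPM in liver. In none of these 3 lists did a name pass or lie outside the organs, since each was low in at least 1 organ too, and their median log2 fold changes were −12.2, −12.6 and −4.97.

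miRNAs known from vessels and blood had reads in brain as well. The endothelial and smooth muscle list summed to 41070 CPM in female and 53452 CPM in male brain, against 43137 CPM in liver, 118342 in ovary, 207214 in testis and 259942 in heart. Most of it was miR-126-3p, with 38426 and 50322 CPM in the brains and 37088 to 248615 CPM in the organs. Of its 6 names, 3 lay below all organs, 0 passed, and the median log2 fold change was −3.44. The blood cell list summed to 1372 and 791 CPM in the brains, against 1186 to 7058 CPM in the organs. One of its 7 names lay below all organs, miR-144-3p of red cells, with 173 and 61.7 CPM in the brains against 181 to 3146 CPM, and the list's median was −0.95. The part of blood and vessels in the differences between brain and organs was not tested.

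The remaining lists gave few names outside the range of the organs. For epithelial names, 0 of the 6 tested did, and the 11 in the files had sums of 39.9 and 773 CPM in female and male brain, against 397 to 6906 CPM in the organs and a median log2 fold change of −3.51. The retina and sensory cell list had 1 of 7 above, miR-204-5p, and a median of −2.36. The neuroendocrine and pituitary list had 1 of 6, miR-7a-3p-2, which passed, and a median of 0.23. For let-7, 3 of 17 lay above and 1 below, with a median of −0.24. The miR-17-92 list had 1 of 14 above and 2 below, with a median of −1.11, and the broadly expressed list had a median of −0.96. None of the 6 Hox cluster names lay outside, with a median of −3.05, and the early embryo list had 0 names in the files.

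**Figure D4:**
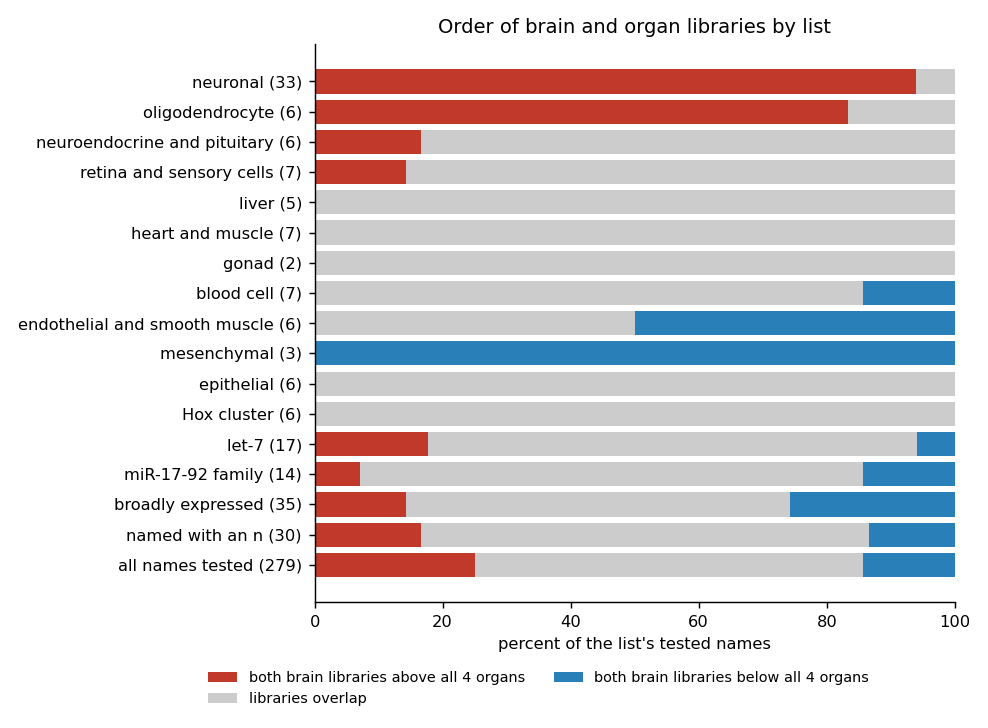
Percent of the tested names of each list with both brain libraries above all 4 organs, overlapping with them, or below all 4, with the number of tested names in brackets. Of the neuronal names, 31 of 33 lie above, against 70 of all 279 names, and all 3 mesenchymal names lie below.

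The 2 brains agreed on the neuronal sum but not on single names. Of the 279 names tested, 75 had reads in both brains and were over 2-fold apart, as were 12 of the 33 that passed and 24 of the 70 above all organs. Male brain was higher in 24 of the 33, in 49 of the 70 and in 153 of the 279, and female brain was higher in 110 of the 279. miR-10b-5p, from the Hox clusters that pattern hindbrain and spinal cord, had 13526 CPM in female and 1158 CPM in male brain, against 177 to 53361 CPM in the organs. miR-10d-5p had 2659 and 18.1 CPM in the brains, a ratio of 147, against 1693 CPM in testis and at most 86.7 CPM in the other organs. The Hox cluster list summed to 27788 CPM in female and 1900 CPM in male brain.

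The opposite difference held for miR-7a-5p, a miRNA of neuroendocrine cells, and for the miR-200 family of epithelia. miR-7a-5p had 5813 CPM in female and 35981 CPM in male brain, against 9643 CPM in ovary, 37862 in testis, 85.2 in liver and 16.4 in heart. Male brain was thus at the level of testis. In female and male brain, miR-200a-3p had 21.4 and 618 CPM, and miR-200b-3p had 6.30 and 119 CPM, against 95.2 to 5091 CPM for both in the organs. miR-216a-5p, known from pancreas, had 1445 CPM in female and 437 CPM in male brain, against 6186 CPM in liver, 418 in ovary, 91.7 in testis and 1.56 in heart. With 1 library per sex, sex, animal and dissection cannot be told apart.

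Libraries outside the comparison placed the brain names further. Eye, which holds the neural retina, was above all 4 organs for 27 of the 33 names that passed, or 81.8%, and for 34 of the 70, or 48.6%, against 17.2% of all names tested. The 33 and the 70 were chosen for lower levels in these 4 organs, so other libraries exceed the organs more easily among them. The highest muscle level did so for 48.5% of the 33 and 40% of the 70, against 34.8% of all names tested. Among the 33, only miR-124a-3p, at 15998 CPM in eye, and miR-124a-5p, at 119 CPM, were as high in eye as in a brain library. Of the 70, both brains lay above eye for 63, against 184 of all 279 names tested. Both brains lay above all 9 other adult libraries, muscle and eye included, for 31 of the 33 and for 58 of the 70. Over all names tested the count above all 9 was also 58, because such a name lies above the 4 organs too. The names of both sets already lay above 4 of these 9 libraries, so their high shares were partly fixed by the choice. Of the 70 names, 66 were higher in larvae at 10 days post-fertilization than in embryos at 2 days, or 94.3%, which is close to 90.3% of all names tested.

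The share of a hairpin's reads from its 5p arm was compared for 101 hairpins whose 2 arms together held 50 reads or more in each of the 6 libraries. The test called no hairpin, which does not show that the shares were equal. With limma on the log2 ratio of 5p to 3p reads and Benjamini-Hochberg adjustment, 0 hairpins passed, or 0%, with 13 at an unadjusted p under 0.05 and a smallest adjusted p of 0.144. Both brains lay above all organs for 15 hairpins, which is 14.9%, and below for 7, which is 6.93%. With hairpins of the same mature name summed, 10 of 66 groups lay above, or 15.2%, and 3 below, or 4.55%. Reads shared between different names stayed divided between groups there. The dominant arm was the 5p arm in all 6 libraries for 62 hairpins and the 3p arm for 33, and no hairpin had a dominant arm in both brains that it had in no organ. The median difference of the mean share was 0.473 percentage points, while the 4 organs spanned a median of 1.84 points. Many shares lay near an end of the scale, where they have little room to move. Larger mean differences with overlapping libraries went both ways. The mean 5p share of mir-144 was 53.8% in brain, from 37.8% in female and 69.8% in male, against 21.6% in the organs. For mir-152 it was 47.4% in brain against 69.5%.

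In several hairpins the dominant arm took a larger share in both brains. The 3 mir-125b hairpins, summed, gave a 5p share of 99.89% in female brain and 99.82% in male brain, against 64.8% in ovary, 98.87% in testis, 98.98% in liver and 98.57% in heart. The ovary share rested on 254 reads of the 5p arm and 138 of the 3p arm, with a Wilson 95% interval from 59.95% to 69.36%. mir-26b had 98.64% and 97.69% in the brains, against 60.45% in ovary and 93.90% to 95.60% in the other organs. Its 5p reads were in part divided with hairpins of another name. let-7h, which shares no read with another hairpin, had 98.77% and 98.20% in the brains, against 92.39% to 97.61% in the organs. Its Wilson 95% intervals overlapped between male brain, from 97.88% to 98.47%, and heart, from 96.41% to 98.42%. mir-125a-1 had 99.93% and 99.92%, against 97.24% to 99.45%, and was the 1 hairpin that passed when at least 200 reads were required.

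Other shares that stood apart depended on how shared reads were divided among copies. mir-103-1, in introns of pantothenate kinase genes in vertebrates, gave 8.11% of its reads as 5p in female brain and 7.54% in male brain, against 0% in ovary and testis, 1.54% in liver and 0.63% in heart. Its copy mir-103-2 gave 1.53% and 2.29% in the brains, against 0.705% to 13.5% in the organs, and with both summed mir-103 overlapped, at 4.92% and 4.97% in the brains against 0.356% to 7.98%. mir-24-5 gave 16.9% and 17.8% in the brains, against 1.24% to 15% in the organs, and its copies summed gave 6.36% and 6.10%, against 1.16% to 16.4%. mir-128-1 gave 0.145% and 0.378%, against 0.409% to 3.45%, and its copies summed gave 0.109% and 0.243%, against 0.205% to 2.11%. For these hairpins the order of single copies was thus lost once copies were summed. mir-20a, which shares no read with another hairpin, gave a lower 5p share of 89.86% and 88.98% in the brains, against 93.19% to 96.72% in the organs. None of these passed with limma, and the Wilson intervals of the brains and of the nearest organ overlapped for mir-24-5, mir-128-1 and mir-20a.

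**Figure D5:**
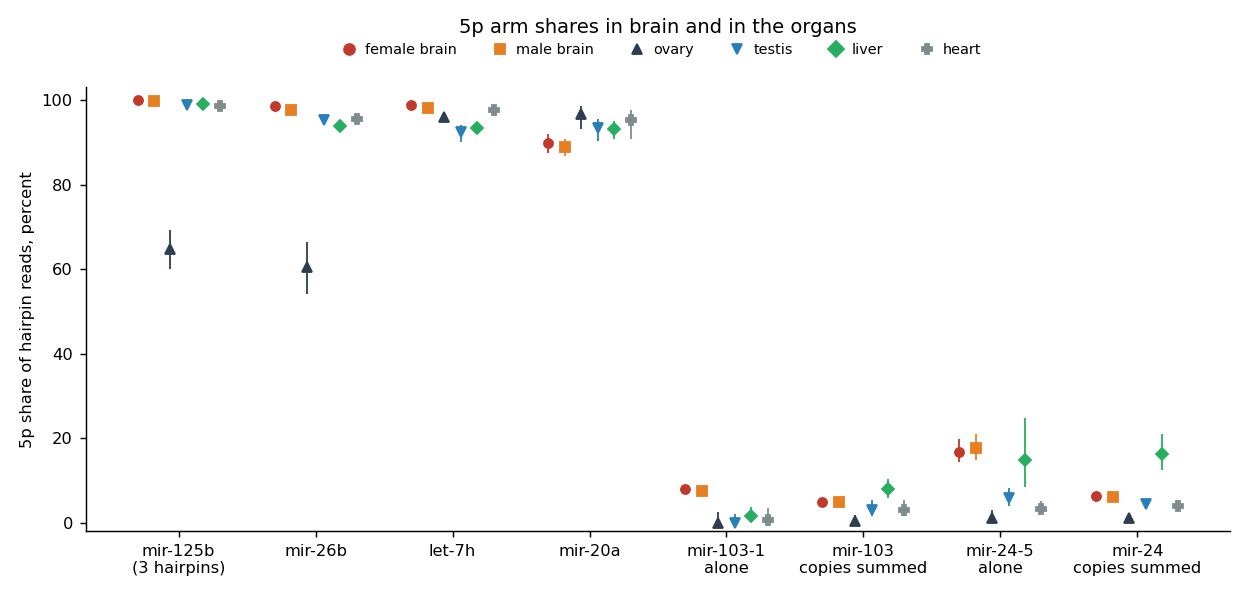
Share of reads from the 5p arm, in percent, in each of the 6 libraries with Wilson 95% intervals, for mir-125b, mir-26b, let-7h and mir-20a, and for mir-103 and mir-24 as 1 hairpin and with copies summed. Ovary stands far below the brains for mir-125b at 64.8% and mir-26b at 60.45%, and the gap at mir-103-1 and mir-24-5 closes when copies are summed.

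Many neural hairpins had too few organ reads for this comparison, and their arms were described in brain only. Of 141 groups with at least 50 reads in both brains, 75 had under 50 in some organ, and 17 of these belong to miR-7 or the neuronal and oligodendrocyte lists. The 5p arm was dominant in both brains for 10 of the 17 and the 3p arm for 7. The 6 mir-124a hairpins gave 0.237% of reads as 5p in female brain and 0.356% in male brain, and the 2 mir-212 hairpins gave 98.96% and 99.45%. Other neural hairpins used both arms. The 7 mir-9 hairpins gave 76.9% and 69.5% as 5p, the 4 mir-129 hairpins 70.4% and 59.6%, the 2 mir-132 hairpins 67.5% and 74.5%, and the 3 mir-219 hairpins 41.0% and 29.6%. The largest gap between the brains among the 17 was the 11.4 points of mir-219.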

How the data were processed

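Small RNA was sequenced from TruSeq libraries, 1 file per library. The authors deposited raw counts per arm and hairpin, in which a read counts at every hairpin it matches, and estimated counts, in which it is divided among them. Neither was normalized. Hairpin positions were found with PaTMan on the oreNil2 genome, per the methods of the study. The submitters' processing notes name DESeq with no version. The counting tool is not given in the sources used here. Of 736 lines, 2 without a mature name and with 0 reads were left out. Depth was 5082018 and 6773179 divided reads in female and male brain and 941828 to 1350066 in the organs.

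Estimated counts were summed per mature name, rounded, and fitted with edgeR 4.0.16 (TMM, glmQLFit, glmQLFTest; R 4.3.3) over names with a mean of at least 5 CPM, brain against the 4 organs as 1 group. The threshold was an adjusted p of 0.05. Standard errors are approximate, the absolute fold change over the square root of F. Arm ratios, log2 with 0.5 added to each arm, were fitted with limma 3.58.1, and DESeq2 1.42.0 served as an alternative. Other values came from Python 3.11.15 with numpy 2.4.6, scipy 1.17.1, pandas 2.3.3 and matplotlib 3.10.9. In simulated data with the spread of these libraries, edgeR recovered 7.5% of 67 names changed by 4 on the log2 scale and 0% of 60 changed by 1, with 0 false calls among 79. With a spread of 0.1 it recovered 100% and 63.3%, with 4 false calls. For arms, the simulated spread was set by hand and not taken from these libraries. There, 68% of 25 shifts of 3 on the log2 scale were recovered, which does not give the recovery at the spread of these data.

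The members and the lists of miRNA families (neuronal, oligodendrocyte, neuroendocrine and pituitary, retina and sensory cells, liver, heart and muscle, gonad, early embryo, blood cell, endothelial and smooth muscle, mesenchymal, epithelial, Hox cluster, let-7, miR-17-92, broadly expressed, and names with an n) were chosen with earlier results of these data known. The rule named the 12 largest changes in each direction that passed, the 10 most abundant names in brain, the 4 most abundant of each list, the 8 largest arm differences in each direction, and the 5 largest ratios between the brains in each direction. Other names were chosen after their values were seen. Alternatives were other scalings, filters, tests and reference libraries, whole-number counts, and leaving out each library.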

Additional observations from a re-analysis of the deposited data

Results flagged for a closer look

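The neuronal list had a signal in libraries that the comparison did not use. Its names summed to 28702 CPM in eye, against 532 to 1787 CPM in the 4 organs. In whole embryos the sum was 2781 CPM at 2 days post-fertilization, 59603 at 3 days, 50706 at 4 days and 46525 at 5 days. In larvae at 10 days it was 33704 CPM. The highest sum in a muscle library was 1140 CPM, which is above ovary, liver and heart and below testis.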

How the results depend on the processing

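Of the 33 names higher in brain, all 33 were shared with the fits that used DESeq2 size factors, library totals, the DESeq2 Wald test, no filter, at least 10 reads in 2 libraries, or each organ as its own group. These fits gave 43, 35, 55, 46, 59 and 71 names higher, and 32 (DESeq2 test) and 52 (organs as own groups) lower, against 0 lower in the others. With whole-number counts, fitted per arm and locus and covering 236 names, 32 names passed, 27 of them among the 33. That setting therefore differs from the main fit in more than the counts. With all 9 other adult libraries 22 names passed, 15 of them among the 33. Leaving out 1 library gave 16 to 42 higher and 0 lower. Names above all organs numbered 137 with no filter, 54 with whole-number counts and 43 at a mean of 50 CPM, and 73 to 88 with 1 library left out. Names below numbered 56 with TMM scaling, 51 with whole-number counts, 48 with no filter and 26 at 50 CPM. They numbered 23 with Poisson intervals apart, 13 against all 9 other adult libraries, and 43 to 67 with 1 library left out, the last without heart. For arm shares, 1 hairpin passed with at least 200 reads and 4 with 5 reads added to each arm, and 0 with each library left out. Over 84 named miRNAs the direction turned in 2 cases, both with muscle and eye added as reference, namely miR-204-5p at −0.21 and miR-338-3p at −0.33 on the log2 scale. The causes were not tested.

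No paired analysis was possible because only female brain and ovary share a fish number. The 4 organs differ from each other as tissues, which widens the spread used by the test, and 1 library per organ gives no error for an organ. Organ depth limits names at 0 reads to under 2.22 to 3.19 CPM.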
